A study of Saccharomyces cerevisiae with 12 samples.

Results

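The small subunit of the yeast mitochondrial ribosome was examined through 31 nuclear genes that encode its proteins, out of 7079 gene identifiers in the deposited tables. The genes were taken from a fixed list of systematic names that covers the MRPS and RSM genes, further MRP genes, NAM9, PET123 and EHD3. No measured value entered this rule, but the list was chosen with earlier results of these data known. All 31 carry RefSeq evidence for the mitochondrial small ribosomal subunit, and the product name of 30 is a small subunit ribosomal protein. The exception is RSM22 (YKL155C), which is named as a methyltransferase. The tables come from RNA-seq of 12 Saccharomyces cerevisiae cultures, of which 3 grew in plain YPD medium as controls and 3 each received tetracycline (Tet), doxycycline (Dox) or 4-epidoxycycline (4-ED) at 1.5 μg/ml. The labels give the strain as BY4741, and the study's methods give it as R1158 (URA3::CMV-tTA MATa), a derivative of BY4741 in which the tetracycline-controlled transactivator is expressed from the CMV promoter. Controls and treated cultures all carried this transactivator. The methods also state that the treated cultures grew more slowly and were harvested at the same density as the controls, so the drug and the slower growth cannot be told apart.

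Mitochondria translate the few proteins encoded in their own DNA on ribosomes that descend from those of bacteria. Tetracyclines bind the small subunit of the bacterial ribosome and block the entry of aminoacyl-tRNA at the A site, where codons are decoded. In yeast the RNA of the mitochondrial small subunit and the protein Var1 are encoded in mitochondrial DNA, while the genes of the other subunit proteins lie in the nucleus, are translated in the cytosol, and their products are imported. Of the 31 proteins, 18 belong to families shared with the bacterial small subunit (names starting uS or bS) and 13 are particular to mitochondria (names starting mS, with RSM22). Tet is the parent compound, Dox is a derivative of it, and 4-ED is the epimer of Dox at the carbon that carries the dimethylamino group.

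The genes share a sequence feature that the choice of genes did not use. The motif TGTANATA, in which N is any base, is the recognition sequence of Puf3, an RNA-binding protein that associates with the messenger RNAs of many mitochondrial proteins. It was found on the coding strand within the 200 bases after the stop codon in 30 of the 31 genes (96.8%), against 844 of 5941 nuclear protein-coding genes (14.2%) in the R64 genome of RefSeq. RSM22 was the gene without it. In the large subunit of the mitochondrial ribosome 43 of 43 genes had the motif, and in the small subunit of the cytosolic ribosome 2 of 56 genes had it. A match to these letters is a description and was not tested as a binding site.

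Sites are shown for the genes at both ends of the response to 4-ED described below, with the motif in capitals and up to 11 bases on each side, 5′ to 3′ on the coding strand. The first 4 belong to the genes with the highest ratios to control and the last 4 to the genes with the lowest ratios among those that have the motif.
RSM27, chrVII:922547-922576, plus strand: aactcatttcaTGTACATAcaaaatcaaaa
RSM19, chrXIV:694996-695025, minus strand: atgatatatcaTGTAAATAagatcaagcca
RSM10, chrIV:540462-540491, plus strand: gatttcgtactTGTAAATAaaataggtgaa
RSM18, chrV:253886-253915, minus strand: atagttctgtcTGTAAATAtacaatatgta
MRP10, chrIV:372580-372609, plus strand: agtcatggcctTGTATATAcaaattaaata
MRPS18, chrXIV:58860-58889, plus strand: atatatattcgTGTAAATAattcgattttt
MRPS9, chrII:536224-536253, plus strand: ttcgttattccTGTAAATAaagttatatgt
RSM26, chrX:619111-619140, plus strand: atcttatatacTGTAAATAgttttatttta

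The motif was present in genes that were higher and in genes that were lower with 4-ED. This follows from the choice of sites, since only genes with the motif could be shown and RSM22 alone lacked it. RSM22, at a log2 ratio of -0.08 with 4-ED, was passed over at the lower end for that reason. The sites shown therefore cannot tell whether the motif goes with the response. Over the 30 genes there were 36 sites, and 25 genes had 1 site each. RSM19 had 3, at 10, 38 and 66 bases after the stop codon, and the second is the one shown above. Of these 3, only the site shown has A as the open base N and a cytosine 2 bases before the motif. Over the 30 genes, the first site of each lay between 8 and 139 bases after the stop codon, with a median of 54.5 bases. The open position of the motif was A in 21 of the 36 sites (58.3%), against 28.2% of the 923 sites of all nuclear protein-coding genes. A cytosine stood 2 bases before the motif in 22 sites (61.1%), as in RSM27 and MRP10 above, against 28% of all sites whose position lay at least 2 bases past the stop codon. This last count was added after the sequences had been seen. Among all genes with at least 10 FPKM, those with the motif had a median log2 ratio to control of 0.10 in Tet, -0.01 in Dox and -0.01 in 4-ED. Those without it had medians of 0.07, -0.04 and -0.03.

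Promoters, taken as the 250 bases before and 50 bases after the coding start, held the motifs searched about as often as those of other genes. On either strand, AAAATTTT, a motif known from ribosome biogenesis genes, was found in 2 of the 31 (6.45%) and in 9.09% of all nuclear protein-coding genes. GATGAG, another motif of such genes, was found in 6 (19.4%) and in 20.2% of all. CCAAT, the core of the sequence bound by the Hap complex that acts on respiratory genes, was found in 15 (48.4%) and in 43.6% of all.

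In the control cultures the 31 genes ranged from 26.3 to 1118 FPKM, with a median of 227 FPKM, in the table that compared Tet with control. FPKM is a fragment count corrected for the length of the transcript and the size of the library, and the authors deposited 1 value for each group. As a share of the RNA sequenced, FPKM cannot tell a lower level of a transcript from a higher level of others. It holds no measure of cell number or of RNA per cell. With 1 value per group, the spread between the 3 cultures of a group is unknown. No error is given for any value, and no difference below was tested. The median over all genes kept was 64.8 FPKM, and 79.6% of them were below the median of the small subunit genes. The controls were the same in all 3 tables, and their values differed by a nearly constant factor, with a median ratio of 0.984 for Tet over Dox, 1.02 for Dox over 4-ED and 1.01 for Tet over 4-ED.

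**Figure D1:**
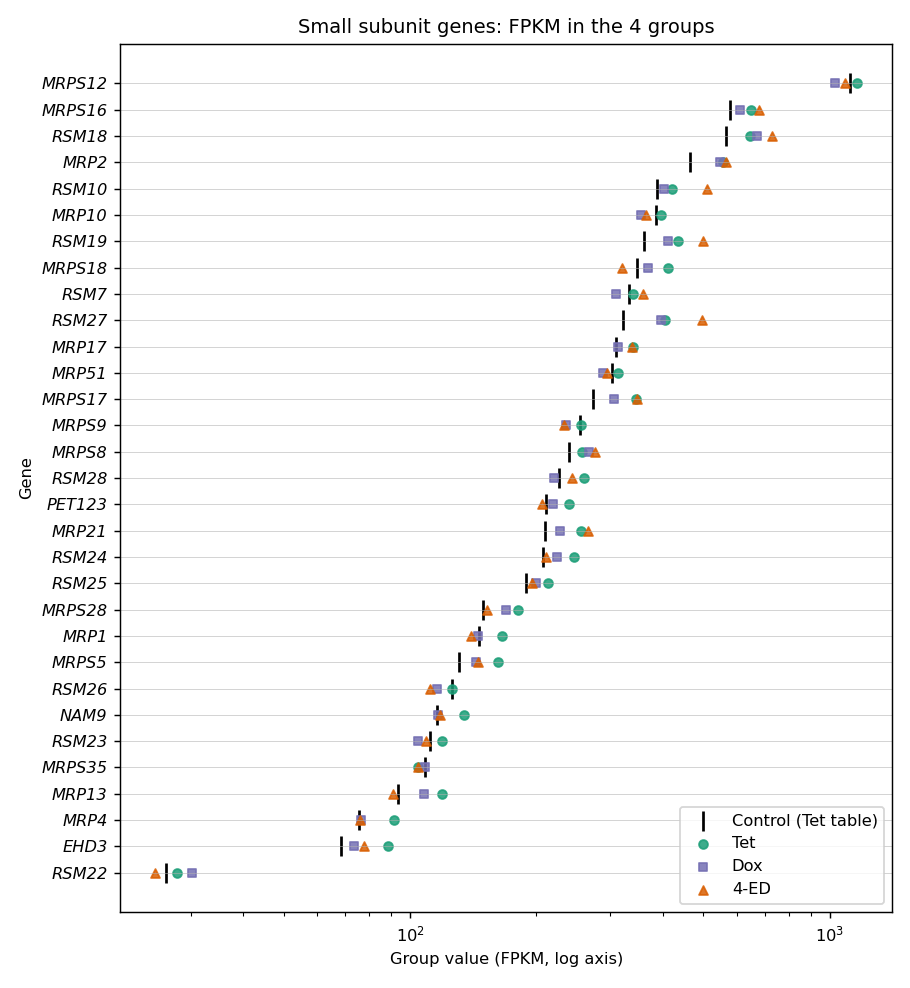
FPKM on a log axis for each of the 31 small subunit genes, ordered by the control value. The upright tick is the control group in the Tet table and the symbols are the Tet, Dox and 4-ED groups, 1 deposited value per group; MRPS12 is highest and RSM22 lowest in every group, and most symbols lie close to the bar.

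MRPS12 (YNR036C), the counterpart of bacterial S12, which lines the decoding centre, was the most abundant transcript of the set. Its values were 1113 to 1136 FPKM in the controls of the 3 tables, 1164 FPKM with Tet, 1030 FPKM with Dox and 1087 FPKM with 4-ED, so that all groups lay close together. The next most abundant in the controls were MRPS16 (YPL013C), the counterpart of bacterial S16, at 579 FPKM, and RSM18 (YER050C), the counterpart of S18, at 566 FPKM in the Tet table. RSM22, whose product is a predicted RNA methyltransferase, was at the other end, with 26.1 to 26.7 FPKM in the controls, 27.8 FPKM with Tet, 30.3 FPKM with Dox and 24.7 FPKM with 4-ED. EHD3 (YDR036C), a 3-hydroxyisobutyryl-CoA hydrolase of valine breakdown that is also a subunit protein, had 68.3 FPKM. MRP4 (YHL004W), the counterpart of S2, had 75.7 FPKM in the same controls. The families differed in level, with a median of 306 FPKM for the 18 bacterial-type genes and 146 FPKM for the 13 mitochondria-specific genes.

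With Tet, the small subunit genes were slightly higher than in the controls almost without exception. The log2 ratio of Tet to control was above 0 in 30 of the 31, with a median of 0.18 (a fold of 1.13), the middle 50% from 0.09 to 0.27, and a whole range from -0.05 to 0.38. Over the 5898 genes kept with Tet, which had at least 10 FPKM on average, 64.3% were above 0 and the median was 0.07. With a threshold of 0.25 on the log2 scale, 10 of the 31 were higher (32.3%), against a background of 21.8% of all genes kept. None was lower by as much, against 7.99% of all genes kept. Relative to the median of all genes, the median of the 31 was 0.11 and 4 genes were above 0.25, against 14.5% of all genes. All 31 passed the minimum of 10 FPKM in each comparison, in the control as well as in the treated group.

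EHD3 had the highest ratio with Tet, with control and treated values of 68.3 and 88.8 FPKM, a log2 ratio of 0.38, which was above that of 90.0% of the genes kept. Its ratio was 0.09 with Dox and 0.20 with 4-ED. MRP13 (YGR084C), a mitochondria-specific protein, was next at 93.7 and 119 FPKM, a log2 ratio of 0.35. MRPS17 (YMR188C), the counterpart of S17, went from 273 to 346 FPKM, a log2 ratio of 0.34. These genes differ in family and in level, so the upper end of the Tet response was not made of 1 kind of subunit protein.

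The lower end of the range with Tet was close to no difference. MRPS35 (YGR165W), a mitochondria-specific protein without which yeast does not grow on glycerol, was the only gene of the set below its control, at 108 and 105 FPKM. RSM26 (YJR101W), which is related in sequence to superoxide dismutases, had 126 FPKM in both groups. MRPS9 (YBR146W), the counterpart of S9, had 254 and 255 FPKM. The other genes at or above 0.25 with Tet were RSM27, MRPS5, MRP21, MRPS28, MRP4, RSM19 and MRP2, at log2 ratios from 0.26 to 0.33.

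With Dox, the same genes lay on both sides of their controls. The log2 ratio was above 0 in 18 and below 0 in 13 of the 31, with a median of 0.05 and a range from -0.15 to 0.28. Over the 5913 genes kept with Dox the median was -0.03, and 43.5% were above 0. Only RSM27 reached 0.25, which is 3.23% of the set against 11% of all genes kept. None was lower by at least 0.25, against 16.9% of all genes kept. In 15 of the 31 (48.4%) the log2 ratio was under 0.1 in size, as in 35.3% of all genes.

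RSM27 (YGR215W; chrVII:922175-922507), a mitochondria-specific protein of the subunit, had 326 FPKM in the controls and 395 FPKM with Dox, a log2 ratio of 0.28. RSM18 followed with 575 and 673 FPKM, a log2 ratio of 0.23, and MRP2 (YPR166C), the counterpart of S14, with 472 and 549 FPKM, a log2 ratio of 0.22. These genes were also among the higher ones with 4-ED, against the same controls.

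At the lower end with Dox, RSM26 had 128 FPKM in the controls and 116 FPKM with Dox, a log2 ratio of -0.15. MRPS12 had a ratio of -0.14. MRP10 (YDL045W-A), a small protein with twin cysteine motifs that is oxidized by Mia40 on import, went from 392 to 356 FPKM, also a ratio of -0.14. The remaining genes below their controls with Dox were MRPS9, RSM7, RSM23, MRP51, RSM28, MRP1, MRPS35, NAM9, MRP4 and MRP17, at ratios from -0.13 to -0.01.

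With 4-ED, the range over the 31 genes was the widest of the 3 treatments. The median log2 ratio of 0.04 was close to that with Dox, but the range ran from -0.17 to 0.64, and 19 of the 31 were above 0. Over the 5875 genes kept with 4-ED the median was -0.02, and 46.8% were above 0. At or above 0.25 there were 7 of the 31 (22.6%), against 15.4% of all genes kept, namely RSM27, RSM19, RSM10, RSM18, MRPS17, MRP21 and MRP2. None was lower by at least 0.25, against 13.6% of all genes kept.

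RSM27 had the highest ratio of the set, with 319 FPKM in the controls against 496 FPKM in 4-ED, a log2 ratio of 0.64, which was above that of 96.7% of the genes kept. It was the only gene of the 31 at or above 0.25 with all 3 treatments, with a log2 ratio of 0.33 with Tet. The share of all genes kept that reached 0.25 with all 3 is not given. RSM19 (YNR037C), the counterpart of S19, went from 359 to 500 FPKM, a log2 ratio of 0.48. RSM10 (YDR041W), the counterpart of S10 and, unlike most of these proteins, essential for viability, went from 386 to 511 FPKM, a log2 ratio of 0.41. For RSM19 the values with Tet and Dox were 435 and 411 FPKM, and for RSM10 they were 421 and 403 FPKM.

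RSM26 was lowest with 4-ED as it was with Dox, at 125 and 111 FPKM, a log2 ratio of -0.17. MRPS9 had 253 and 233 FPKM, a ratio of -0.12. MRPS18 (YNL306W), the counterpart of S11 and also essential for viability, had 345 and 319 FPKM, a ratio of -0.11, whereas with Tet it was at 412 FPKM, a ratio of 0.25 that stayed just under the threshold. Below their controls with both Dox and 4-ED were 8 genes, RSM23, MRP51, MRPS12, MRPS35, MRP1, MRP10, MRPS9 and RSM26. Above their controls with all 3 treatments were 14. The same controls enter all of these ratios, and the share of all genes kept with either pattern is not given. In single treatments, 64.3% of all genes kept were above 0 with Tet, 43.5% with Dox and 46.8% with 4-ED.

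**Figure D2:**
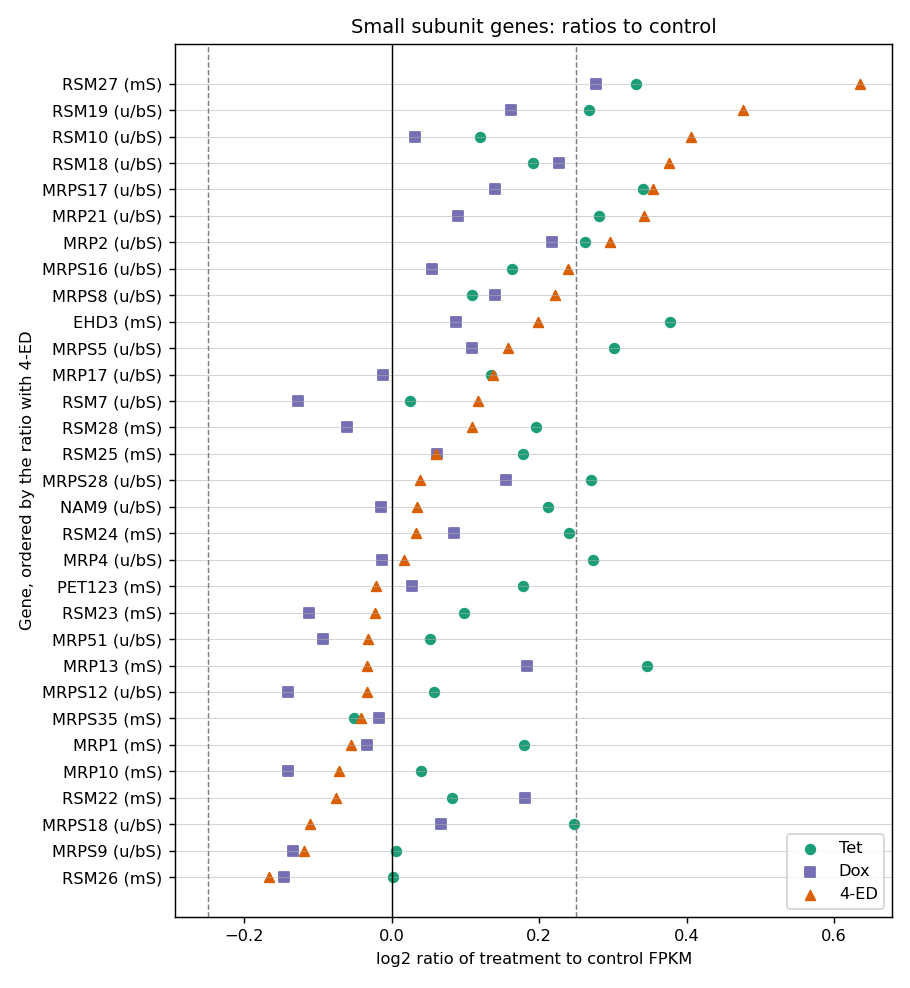
Log2 ratio of treatment to control FPKM for each of the 31 genes with Tet, Dox and 4-ED, ordered by the ratio with 4-ED, with dashed lines at 0.25 in size; u/bS marks bacterial-type and mS mitochondria-specific genes, RSM22 among the latter. No gene lies below -0.25, and RSM27 is past 0.25 with all 3 treatments.

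The medians of the bacterial-type and the mitochondria-specific genes differed little with Tet or Dox and more with 4-ED. With Tet the median log2 ratio was 0.20 over the 18 bacterial-type genes and 0.18 over the 13 mitochondria-specific genes. With Dox it was 0.06 and 0.03. With 4-ED it was 0.15 and -0.02. At or above 0.25 with 4-ED were 6 of 18 bacterial-type genes (33.3%) and 1 of 13 mitochondria-specific genes (7.69%), which was RSM27. Over all genes kept this share was 15.4%. With Tet it was 7 of 18 (38.9%) and 3 of 13 (23.1%), beside 21.8% of all genes kept. With Dox it was 0 of 18 and 1 of 13 (7.69%), beside 11%. Those below 0 with 4-ED were 4 of 18 and 8 of 13. Above 0 were 77.8% and 38.5%, beside 46.8% of all genes kept.

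Gene length and control level moved with this difference. The bacterial-type genes had a median length of 633 bp and the mitochondria-specific genes of 966 bp. With 4-ED the 10 genes under 600 bp had a median log2 ratio of 0.27, and 5 of them were at or above 0.25. The 12 genes from 600 to 1000 bp had a median of 0.04 and the 9 genes from 1000 bp up a median of -0.02. All genes kept moved in the same order with 4-ED, with medians of 0.15, -0.01 and -0.04 in the same length classes, and 37.2% of those under 600 bp were at or above 0.25. Across the 31 genes the log2 ratio with 4-ED and the log2 of length were correlated at r = -0.55 (Pearson) and rho = -0.46 (Spearman), and r was -0.60 without the 2 genes farthest from the median length. Across all genes kept, r was -0.18. With the log2 of control FPKM, the ratio with 4-ED had r = 0.36 and rho = 0.38 across the 31 genes. Across all genes kept these were r = -0.02 and rho = 0.09. The 31 genes come from the same libraries and are not independent replicates. The part of length or control level in the values with 4-ED was not tested.

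**Figure D3:**
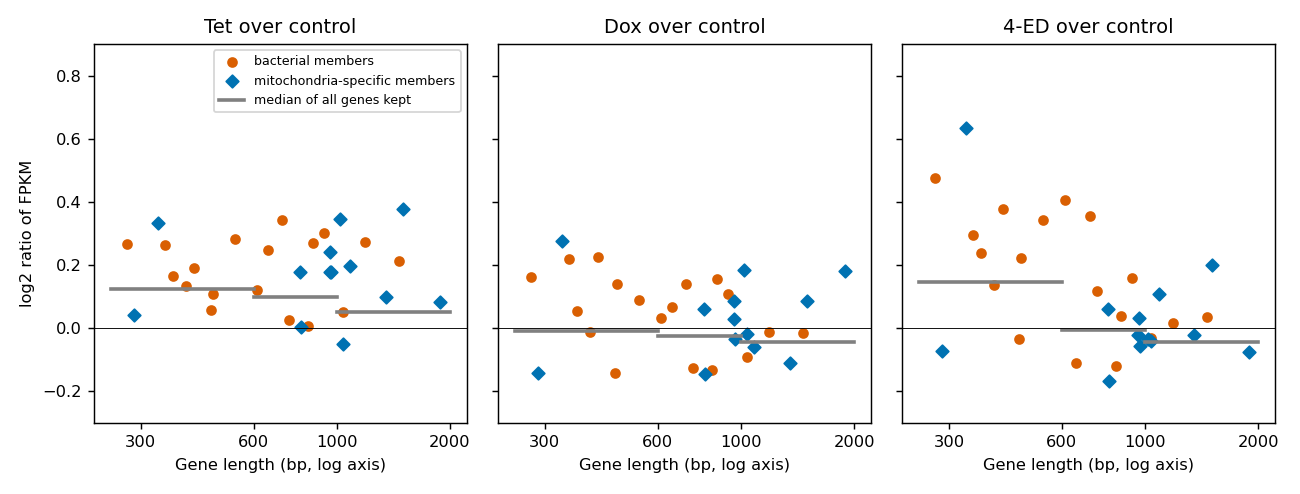
Log2 ratio of treatment to control FPKM against gene length (log axis) for the 31 genes in each treatment, with the family shown by the symbol and the median of all genes kept in 3 length classes as grey lines. With 4-ED the genes under 600 bp have a median of 0.27 and those from 1000 bp up of -0.02, while with Tet both medians lie between 0.17 and 0.20.

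The short genes did not all behave alike. MRP10, at 288 bp, had a log2 ratio of -0.07 with 4-ED, and MRPS12, at 462 bp, had -0.03, whereas RSM19, at 276 bp, had 0.48. MRPS12 and RSM19 are neighbours on the same strand of chromosome XIV. With Tet there was no such order, with medians of 0.18, 0.18 and 0.20 over the 3 length classes of the set, and with Dox the medians were 0.12, 0.05 and -0.01. Within length classes the families did not keep 1 order with 4-ED. Under 600 bp the median was 0.27 for the 8 bacterial-type genes and 0.28 for the 2 mitochondria-specific genes, RSM27 and MRP10, which lay far apart. From 600 to 1000 bp it was 0.12 for 7 and -0.02 for 5 genes, and from 1000 bp up it was 0.02 for 3 and -0.03 for 6 genes.

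The 3 compounds were given at the same dose, and their ratios were compared gene by gene by subtraction, over 3 pairs of compounds. Each table had been scaled separately, and the spread between cultures is unknown, so these differences have no interval and were not tested. Between the epimers Dox and 4-ED, the median difference in log2 ratio, Dox minus 4-ED, was -0.07 over the 31 genes and -0.04 over all genes kept. It was below 0 in 16 of the 18 bacterial-type genes and in 5 of the 13 mitochondria-specific genes, beside 3338 of all 5845 genes kept. RSM10 differed most between the epimers, by -0.37, with 403 FPKM with Dox and 511 FPKM with 4-ED. RSM22 differed most in the other direction, by 0.26. Differences of at least 0.25 in size were seen in 5 of the 31 genes (16.1%) and in 28.5% of all genes kept.

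Between Dox and Tet, 27 of the 31 genes had a lower log2 ratio with Dox, as did 4586 of all 5872 genes kept, with a median difference of -0.15, beside -0.12 over all genes kept. EHD3 differed most, by -0.29, with 73.7 FPKM with Dox and 88.8 FPKM with Tet. Between 4-ED and Tet the median difference was -0.11, beside -0.08 over all genes kept, and the range from -0.38 for MRP13 to 0.30 for RSM27 was wider than between Dox and Tet. MRP13 had 90.9 FPKM with 4-ED and 119 FPKM with Tet. The ratio was highest with Tet in 18 of the 31 genes, with 4-ED in 11 and with Dox in 2, MRPS35 and RSM22. The share of all genes kept with each order is not given. Their median ratio was also highest with Tet, at 0.07, beside -0.03 with Dox and -0.02 with 4-ED. After subtraction of the median of all genes in each table, the median differences from Tet were -0.046 for Dox and -0.025 for 4-ED.

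Other components of the small subunit lay on both sides of their controls. SWS2 (YNL081C), the counterpart of S13, FYV4 (YHR059W) and QRI5 (YLR204W) are nuclear genes of the subunit that the list did not hold. For SWS2 the log2 ratio was -0.02 in Tet, -0.07 in Dox and -0.12 in 4-ED. FYV4 had 0.19, -0.02 and -0.13, and QRI5 had 0.28, 0.07 and 0.04. All lay inside the range of the 31 genes in each treatment, and FYV4 and SWS2 were short genes that were not higher with 4-ED.

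The components encoded in mitochondrial DNA went in opposite directions with Tet and Dox. VAR1 (Q0140), the only subunit protein made inside the mitochondrion, had 109 FPKM in the controls and 86.3 FPKM with Tet, a log2 ratio of -0.34. With Dox it had 95 FPKM, a ratio of -0.22, and with 4-ED 107 FPKM, a ratio of -0.02. The 15S ribosomal RNA had 28.3 FPKM in the controls and 39.3 FPKM with Tet, a ratio of 0.48. It had 36.7 FPKM with Dox, a ratio of 0.35, and 65.5 FPKM with 4-ED, a ratio of 1.22. The libraries were selected for mRNA, and yeast mitochondrial RNAs lack the poly(A) tails of nuclear transcripts, so these values need not follow the levels in the cell.

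Genes that work with the subunit were compared with it by the same measure. Of 9 mitochondrial translation factors, 8 were kept, with a median log2 ratio of 0.19 in Tet, 0.12 in Dox and -0.09 in 4-ED. MEF2 (YJL102W), known for ribosome recycling, had the highest ratio of these in each treatment, with 0.58, 0.47 and 0.30. MEF1 (YLR069C), an elongation factor, had the lowest, with -0.09, -0.01 and -0.28. For 9 activators that promote the translation of single mitochondrial messenger RNAs, the medians were -0.01, 0.01 and -0.01. In the group of 12 mitochondrial aminoacyl-tRNA synthetases they were 0.06, 0.00 and -0.16, and 1 of the 12 was above 0 with 4-ED, which was ISM1. The 4 genes for transcription or stability of the mitochondrial RNAs had medians of -0.07, 0.02 and -0.17, and among them MTF1 (YMR228W), the specificity factor of the mitochondrial RNA polymerase, had -0.24, -0.36 and -0.27.

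The closest set was the large subunit of the same ribosome. The median over its 43 genes was 0.19 in Tet, 0.05 in Dox and 0.04 in 4-ED, beside 0.18, 0.05 and 0.04 for the small subunit. At or above 0.25 were 12 of the 43 with Tet (27.9%), 1 with Dox (2.33%) and 6 with 4-ED (14.0%). Over all genes kept these shares were 21.8%, 11% and 15.4%. Lower by at least 0.25 with 4-ED were 2 of the 43 (4.65%), against 13.6% of all genes kept. The 56 genes of the cytosolic small subunit, many of which have near-identical copies that share reads, had medians of 0.33, 0.18 and 0.06 in the same order. At or above 0.25 with Tet were 42 of the 56 (75%). Above 0 with Tet were 41 of the 43 large subunit genes (95.3%) and 52 of the 56 cytosolic genes (92.9%). For the small subunit of the mitochondrial ribosome it was 30 of 31, beside 64.3% of all genes kept. No test separates these sets, since the deposited values hold no replicates.

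**Figure D4:**
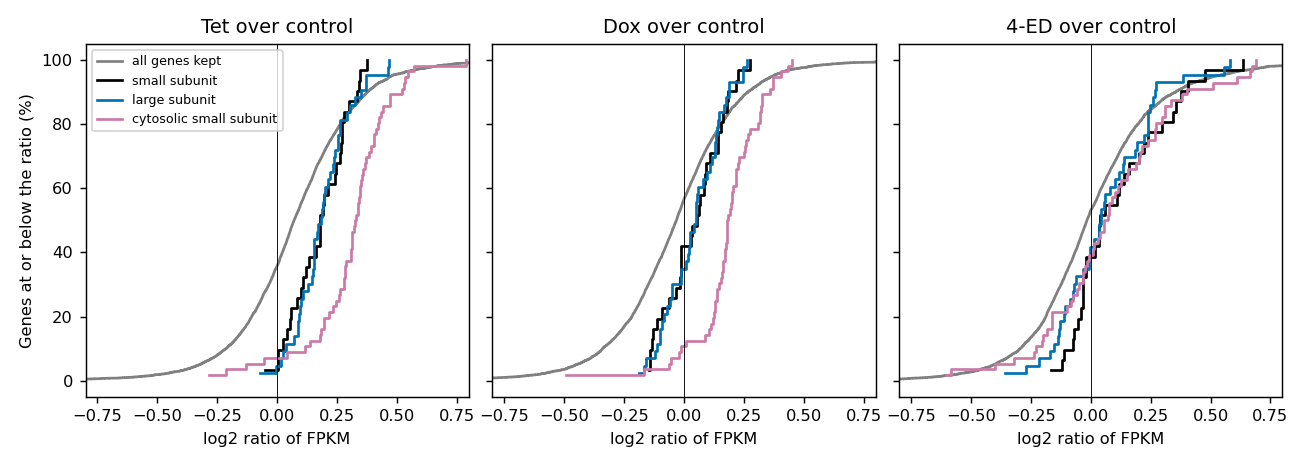
Share of genes at or below a given log2 ratio of treatment to control FPKM for the 31 small subunit genes, the 43 large subunit genes, the 56 cytosolic small subunit genes and all genes kept, 1 panel per treatment. The medians of the small and large subunit are 0.18 and 0.19 with Tet, and the cytosolic set has the higher median with Tet (0.33) and Dox (0.18); the few ratios beyond the axis are not drawn.

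The 31 genes lay on 12 chromosomes, with 7 on chromosome IV and 4 each on chromosomes VII and XIV, and each has a single coding exon. RSM7 (YJR113C), the counterpart of S7, overlaps the locus YJR114W, and MRP4 overlaps YHL005C, and the strand setting of the counting is not given in the sources used here, so reads of these pairs cannot be told apart. In Tet, Dox and 4-ED the log2 ratio of RSM7 was 0.02, -0.13 and 0.12, and that of MRP4 was 0.27, -0.01 and 0.02. The genes not described above, MRPS8, RSM24, RSM25, MRPS5, MRPS28, MRP21, MRP17, MRP1, NAM9, PET123, MRP51, RSM23 and RSM28, had ratios between 0.05 and 0.30 with Tet, between -0.11 and 0.15 with Dox, and between -0.06 and 0.34 with 4-ED. Among them, MRP1, MRP17 and PET123 interact genetically with PET122, a translational activator of COX3, and MRP21 and MRP51 with mutations in the leaders of the COX2 and COX3 messenger RNAs. With 4-ED the ratios were -0.06 for MRP1, 0.14 for MRP17, -0.02 for PET123, 0.34 for MRP21 and -0.03 for MRP51, so they did not share a direction.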

How the data were processed

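RNA-seq was performed on 12 cultures, 3 per group. Reads were aligned by the authors with Bowtie2 (R64 genome) and quantified by Cuffdiff against Ensembl gene models. Tool versions are not given in the sources used here. The deposited values are FPKM, 1 per gene and group, scaled by Cuffdiff within each of 3 tables. No values per library were used, so the depth behind a gene and the spread between cultures are unknown and no test was run. The authors' fold changes, test statistics, p-values and q-values were not used. Of the identifiers, 5999 of 7079 matched a RefSeq locus tag (assembly R64, the same build), 5363 with identical start and end, and lengths, positions and symbols came from RefSeq where matched.

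Treated FPKM was divided by control FPKM and log2-transformed, without a pseudocount, for genes with both values above 0 and a mean of at least 10 FPKM. Genes past 0.25 or -0.25 were counted as higher or lower. The counting step was checked on simulated data with planted changes larger than any ratio of the 31 genes and with an assumed noise. That check does not cover changes of the size seen here. All 31 genes are named, with full values for the 3 highest and 3 lowest in each treatment and in the controls, and for the largest difference in each pair of compounds. The members and lists were chosen with earlier results of these data known. Python 3.11.15, numpy 2.4.6, pandas 2.3.3, scipy 1.17.1 and matplotlib 3.10.9 were used.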

Additional observations from a re-analysis of the deposited data

How the results depend on the processing

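No paired analysis was possible because the deposited tables hold 1 value per group, and for the same reason no culture could be left out. Under the alternatives tried, 65 of 78 values moved by at most 0.05 on the log2 scale, or within 1.5 times for counts. Centring on the median of all genes moved the median with Tet from 0.18 to 0.11, the number of genes higher with Tet from 10 to 4 (against 14.5% of all genes kept) and with Dox from 1 to 2 (against 13.7%), and the median differences to -0.046 for Dox minus Tet and to -0.025 for 4-ED minus Tet. At a log2 ratio of at least 0.5, 0 genes were higher with Tet, 0 with Dox and 1 with 4-ED, against 4.41%, 2.35% and 5.41% of all genes kept. At 0.1, 22, 10 and 14 of the 31 were higher, against 44.8%, 26.8% and 31.7% of all genes kept, and 6 were lower with Dox and 3 with 4-ED, against 37.9% and 34.1%. The changes with the threshold follow from its construction. Centring also changed the reading with Tet. The share of the 31 genes that were higher was above that of all genes kept before it (32.3% against 21.8%). After centring it was below, at 4 of the 31 against 14.5%. The values of the set stayed within those limits with a pseudocount of 1 or 10 FPKM and with no minimum. They also did with a minimum of 100 FPKM and after removal of genes that overlap another locus. At 100 FPKM, however, the values of all genes moved. Their share at or above 0.25 was 25.7% with Tet, beside 8 of 28 small subunit genes, and 22.4% with 4-ED, beside 7 of 27. Their median difference was -0.107 for Dox minus 4-ED and -0.162 for Dox minus Tet, beside -0.079 and -0.149 for the set.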
